A study of Mus musculus with 12 samples.

Results

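This account follows 10 genes that make, sense or answer glucocorticoid hormone in the mouse kidney cortex, out of 47719 genes in the expression table. They are the activating enzyme Hsd11b1, the receptors Nr3c1 and Nr3c2, and the response genes Fkbp5, Tsc22d3, Sgk1, Zbtb16, Dusp1, Klf9 and Cebpd. They were picked by known function with the FPKM values of the 4 groups in view, so their differences with LPS and with ethanol are given as a description and carry no p-values. FPKM is a level per transcript length and per sequenced fragment.

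The samples were kidney cortex from male C57BL6/J mice aged 8 weeks, with 12 total RNA libraries in 4 groups of 3. EtOH4hLPS mice drank a liquid Lieber DeCarli diet with ethanol raised in steps to 6% over a 6-week schedule and received 10 mg/kg lipopolysaccharide (LPS, from E. coli) intraperitoneally 4 hours before sacrifice. EtOH mice had the same ethanol diet and saline. PF4hLPS mice were pair-fed an isocaloric maltose-dextrin diet and received the same LPS dose. PF mice were pair-fed and received saline. The design therefore asks what acute endotoxin does to cortex RNA, and whether chronic ethanol alters it. The labels number the libraries but do not state that each is a different mouse and the p-values rest only on how far the libraries of a group lie apart, which may be technical.

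Corticosterone, the main glucocorticoid of mice, circulates in active and inactive forms. Hsd11b1 encodes the reductase that regenerates active corticosterone inside cells, and Hsd11b2 encodes the dehydrogenase that inactivates it in the aldosterone-sensitive distal nephron. The hormone binds the glucocorticoid receptor (Nr3c1) and, where Hsd11b2 does not remove it, the mineralocorticoid receptor (Nr3c2). The bound receptors enter the nucleus and act at paired DNA arms, and some target genes, such as Fkbp5 and Tsc22d3, feed back on the receptor or on inflammatory signalling.

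Promoter windows with a match to a known hormone or cyclic AMP element are shown first. Whether such sequence bears on the levels of these genes was not tested. RefSeq promoter windows (GRCm38.p6, 250 bases before to 50 bases after a start site) were matched for 7 of the 10 genes, with 14 windows in all. Nr3c1, Zbtb16 and Cebpd were not matched. Of the 14 windows, 6 belong to Sgk1 and 3 to Tsc22d3, so counts of windows are not counts of genes. The first window shown is 1 of the 6 Sgk1 starts, on chr10:21993640-21993939, plus strand. It has a glucocorticoid response element in capitals (arms AGNACA and TGTNCT, 3 bases apart, at -189 to -175 from the start site). The second is the Dusp1 start on chr17:26508423-26508722, minus strand, with a cyclic AMP response element (TGACGTCA, at -143 to -136) in capitals.
Sgk1: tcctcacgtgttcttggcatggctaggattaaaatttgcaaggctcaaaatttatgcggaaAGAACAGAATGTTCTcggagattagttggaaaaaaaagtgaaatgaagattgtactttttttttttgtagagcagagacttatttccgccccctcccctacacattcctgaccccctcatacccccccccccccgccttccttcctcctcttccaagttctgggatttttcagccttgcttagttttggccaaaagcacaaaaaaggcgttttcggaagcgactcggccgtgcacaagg
Dusp1: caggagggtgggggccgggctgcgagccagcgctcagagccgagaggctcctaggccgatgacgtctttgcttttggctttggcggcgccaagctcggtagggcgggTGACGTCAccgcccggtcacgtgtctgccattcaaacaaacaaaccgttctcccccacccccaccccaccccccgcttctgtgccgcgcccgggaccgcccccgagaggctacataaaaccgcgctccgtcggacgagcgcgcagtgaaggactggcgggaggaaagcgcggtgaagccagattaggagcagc
The glucocorticoid element was found, on either strand, in 0.0639% of 32851 promoter windows and in 1 of the 14 windows of these genes. The cyclic AMP element was found in 1.79% of all windows and in 1 of the 14. A single arm with the letters TGTTCT was found in 19.0% of all windows and in 4 of the 14, which were 3 Sgk1 windows and 1 Tsc22d3 window. The arms inside the Sgk1 element also match that single-arm search. The Hsd11b1, Fkbp5, Klf9 and Nr3c2 windows held none of these 3 motifs. Other motifs stood in 8.30% (TTCNNNGAA, STAT), 10.8% (TTGCNNAA, C/EBP) and 8.46% (kappa B) of all windows, and in 3, 2 and 1 of the 14. A match is a description of letters and not a measured binding site.

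Depth could be compared only in relative terms, because the table holds no counts. By an estimate from the step size of low values, the libraries held between 0.491 (PF4hLPS library 2) and 1.20 (PF library 3) times the fragments of PF library 1. Summed FPKM ran between 1005219 and 1935824, with both highest sums in PF4hLPS libraries 2 and 3, and protein-coding genes gave 29.3% to 42.6% of the sum. All 37 mitochondrial genes were listed at 0. Proximal tubule markers summed to 2463 to 2633 FPKM in EtOH4hLPS libraries, 2452 to 2560 in EtOH libraries, 1730 to 2190 in PF4hLPS libraries and 2363 to 2799 in PF libraries, and none of these 8 markers passed the test with LPS. One label field calls the source whole kidney where another gives cortex. A fold change below is a limma estimate on log2(FPKM + 1) over 14109 genes, which understates the change of low genes, and "passed" means a Benjamini-Hochberg adjusted p under 0.05.

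Hsd11b1, the activating enzyme, was lower in ethanol-fed mice. The gene (chr1:193221634-193264075, minus strand, mm10) had 49.3, 28.4 and 32.3 FPKM in the EtOH4hLPS libraries and 42.3, 48.6 and 53.5 FPKM in the EtOH libraries. It had 80.5, 148.8 and 181.5 FPKM in the PF4hLPS libraries and 104.2, 86.3 and 77.8 FPKM in the PF libraries. Every ethanol library was therefore below every pair-fed library, with or without LPS. Averaged over both LPS states, the fold change of Hsd11b1 with ethanol was -1.35 ± 0.21 on the log2 scale (SE). In that comparison 0.22% of all genes were called lower, and Hsd11b1 was 1 of those 31.

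**Figure D1:**
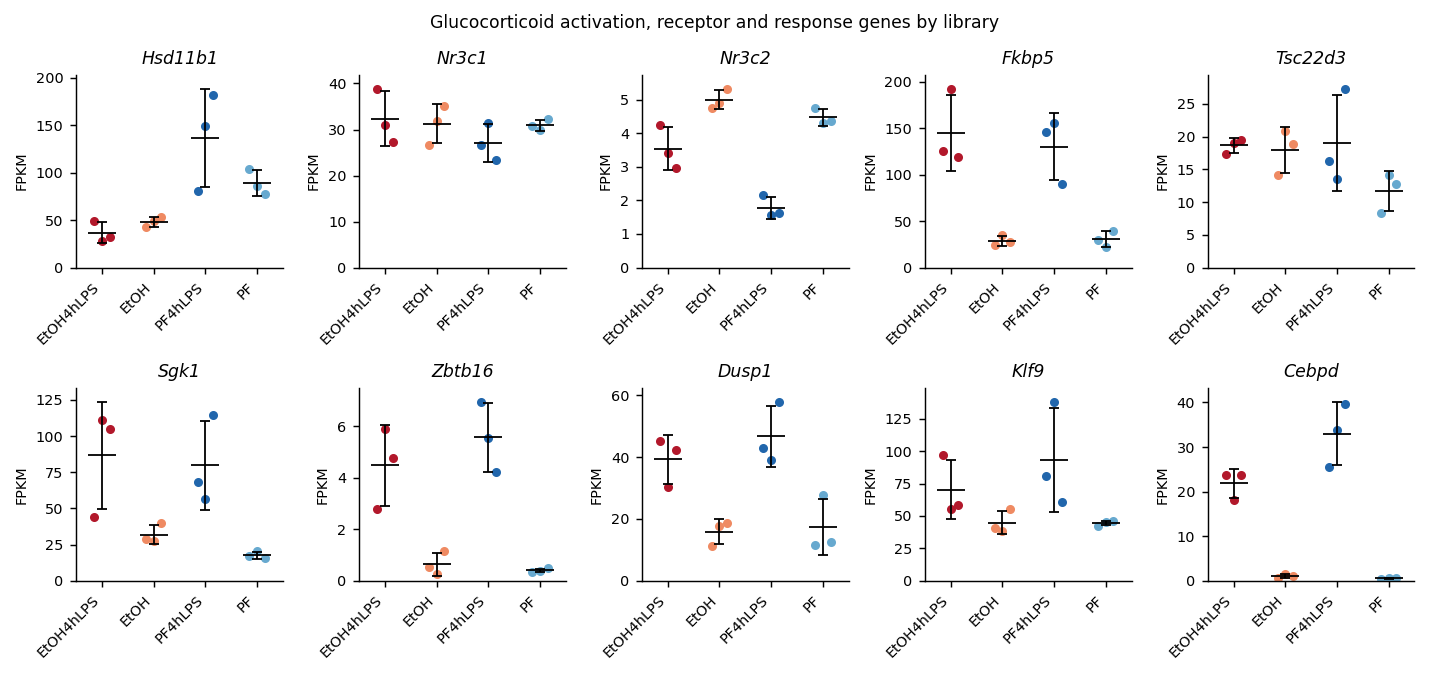
FPKM of the 10 genes in each of the 12 libraries, with a point per library and the mean and SD of each group of 3 in black, on linear axes that start at 0. Hsd11b1 sat at 28.4 to 53.5 FPKM in the 6 ethanol libraries and at 77.8 to 181.5 FPKM in the 6 pair-fed libraries, while Fkbp5, Zbtb16, Dusp1, Sgk1 and Cebpd separated by LPS.

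Among LPS-treated mice the Hsd11b1 level was 36.7 ± 11.1 FPKM in EtOH4hLPS and 136.9 ± 51.6 FPKM in PF4hLPS (SD, n = 3 each), a ratio of 0.268. The fold change was -1.83 ± 0.29, in a comparison where 0.0638% of genes were called lower, Hsd11b1 among them. Nothing is read from these 2 calls, since the gene was chosen with its values in view. Among saline mice it was 48.1 ± 5.58 FPKM in EtOH and 89.4 ± 13.5 FPKM in PF (SD, n = 3 each), a ratio of 0.538. That fold change was -0.88 ± 0.29, and the groups did not overlap. The difference between the 2 ethanol effects was -0.96 ± 0.41.

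Across the alternative settings, single libraries left out included, the fold change stayed between -1.52 and -1.17 for the average and between -2.17 and -1.57 among LPS-treated mice. The calls were less stable. The averaged call passed under 8 of 19 alternatives, and under 3 of the 12 that left out 1 library. Among LPS-treated mice the call passed under 3 of 20, and under 2 of those 12. With LPS, Hsd11b1 itself stood at -0.42 ± 0.29 in ethanol-fed mice, and at -0.75 there with equal total FPKM. In pair-fed mice it stood at 0.54 ± 0.29, and at 0.04 with equal total FPKM. In the pair-fed mice the LPS libraries, at 80.5 to 181.5 FPKM, overlapped the PF libraries, and without PF4hLPS library 1 the difference was 0.88.

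Other genes that handle corticosteroids were tested next. Of 13 listed genes for corticosteroid activation, inactivation, synthesis and transport, 6 were high enough to test and 7 were not, including the adrenal synthesis genes Cyp11a1, Cyp11b1, Cyp11b2 and Cyp21a1. Srd5a2, which encodes a steroid 5-alpha-reductase and was picked out here after its values were seen, was the only 1 of the 6 that passed in the averaged ethanol comparison. It had 2.91, 2.87 and 3.10 FPKM in EtOH4hLPS, 3.39, 1.93 and 1.99 FPKM in EtOH, 5.21, 4.56 and 8.53 FPKM in PF4hLPS, and 7.81, 6.99 and 7.02 FPKM in PF. As a description without a test, Srd5a2 was lower with ethanol by 1.05 ± 0.16, and all 6 ethanol libraries were below all 6 pair-fed ones. Over all tested genes, 0.22% were called lower in that comparison and 0.999% were lower without overlap. The Srd5a2 call passed under 10 of 19 alternatives. It was lost with equal total FPKM, with no filter on low values and with the replicate block. It was also lost without any 1 of the PF libraries, EtOH library 2 or 3, or EtOH4hLPS library 2.

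Hsd11b2, the inactivating enzyme, moved with LPS. It had 9.94, 6.75 and 11.4 FPKM in EtOH4hLPS libraries against 18.0, 18.8 and 14.7 FPKM in EtOH libraries, and 7.002, 3.32 and 4.12 FPKM in PF4hLPS libraries against 9.75, 14.3 and 13.6 FPKM in PF libraries. It fell by 0.83 ± 0.26 in ethanol-fed mice (adjusted p = 0.0456) and by 1.25 ± 0.26 in pair-fed mice (adjusted p = 0.00513). The pair-fed call passed under all 20 alternatives and the ethanol-fed call under 7 of 20, with adjusted p up to 0.177. Averaged over LPS states, the ethanol difference of Hsd11b2 was 0.64 ± 0.18 and did not pass (adjusted p = 0.224).

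Hsd11b2 marks the principal cells of the distal nephron, so their markers are given beside it. The 6 principal cell markers, none of them at 0, summed to 51.7 to 71.9 FPKM in EtOH4hLPS against 62.6 to 70.6 in EtOH libraries, and to 25.3 to 47.7 FPKM in PF4hLPS against 44.1 to 69.6 in PF libraries. Of these 6, Avpr2 fell in both diets and Aqp3 fell in the pair-fed mice. Among all tested genes 6.39% were called lower on ethanol and 6.89% on the pair-fed diet. Avpr2 reached the filter on low values through saline libraries alone, which fixed its direction in part. The part of principal cells in the Hsd11b2 difference was not tested. In bulk tissue, fewer cells of a type and less RNA per cell cannot be told apart. H6pd, whose product supplies the cofactor that lets Hsd11b1 work as a reductase, had 29.96, 99.3 and 98.6 FPKM in EtOH4hLPS against 30.7, 39.8 and 25.3 in EtOH, and 75.3, 25.1 and 47.2 FPKM in PF4hLPS against 21.98, 32.1 and 43.4 in PF. Its LPS differences of 1.06 ± 0.49 and 0.50 ± 0.49 did not pass (adjusted p = 0.182 in ethanol-fed and 0.525 in pair-fed mice).

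**Figure D2:**
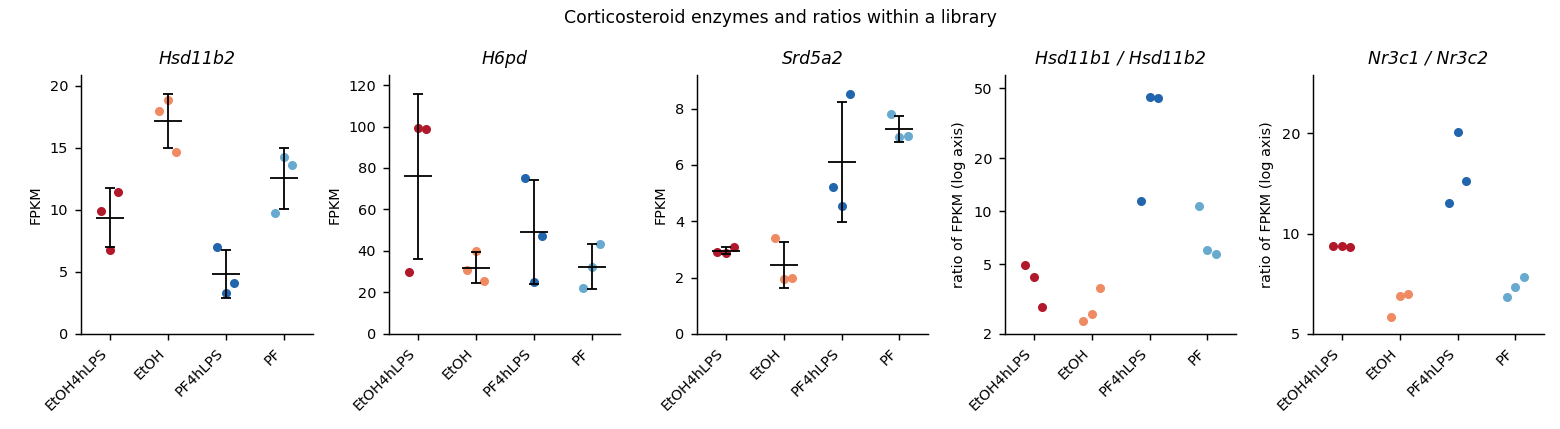
FPKM of Hsd11b2, H6pd and Srd5a2 by library (mean and SD of 3 in black, linear axes from 0), and the ratios of Hsd11b1 to Hsd11b2 and of Nr3c1 to Nr3c2 within each library (log axes). The Hsd11b1 to Hsd11b2 ratio lay between 2.35 and 4.96 in the 6 ethanol libraries and between 5.71 and 44.8 in the 6 pair-fed libraries.

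Set against each other within a library, the activating and inactivating enzymes gave a ratio of 4.96, 4.202 and 2.83 in EtOH4hLPS and 2.35, 2.58 and 3.65 in EtOH. The ratio was 11.5, 44.8 and 44.1 in PF4hLPS and 10.7, 6.04 and 5.71 in PF. All 6 ethanol libraries lay below all 6 pair-fed ones, and PF4hLPS libraries 2 and 3 stood far above the rest. The ratio follows from the values already given and has no test of its own.

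Of the receptors, Nr3c2 was lower with LPS in both diets and Nr3c1 overlapped between LPS and saline libraries. Nr3c1, on chromosome 18, had 38.8, 31.1 and 27.2 FPKM in EtOH4hLPS against 26.7, 31.9 and 35.1 FPKM in EtOH, and 26.6, 31.4 and 23.3 FPKM in PF4hLPS against 30.7, 29.8 and 32.2 FPKM in PF. Its LPS fold changes were 0.04 ± 0.18 (ethanol-fed) and -0.20 ± 0.18 (pair-fed). The ethanol-fed value turns negative with equal total FPKM (-0.28) or quantile normalization (-0.24). The pair-fed value was -0.68 with equal total FPKM.

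Nr3c2 (chr8:76899442-77245012, plus strand), was at a lower level than Nr3c1. It had 4.23, 3.40 and 2.98 FPKM in EtOH4hLPS against 4.76, 4.91 and 5.32 FPKM in EtOH, and 2.15, 1.56 and 1.62 FPKM in PF4hLPS against 4.75, 4.31 and 4.36 FPKM in PF. All LPS libraries were below all saline libraries in both diets. Its LPS fold change was -0.41 ± 0.16 in ethanol-fed mice and -0.98 ± 0.16 in pair-fed mice, and across the alternatives it stayed negative, between -0.69 and -0.32 on ethanol and between -1.32 and -0.93 on the pair-fed diet. Every ethanol library was also above the pair-fed libraries of the same LPS state. The ethanol fold change was 0.70 ± 0.16 with LPS, 0.13 ± 0.16 with saline and 0.42 ± 0.11 on average, and the difference between the diets in the LPS response was 0.57 ± 0.22.

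Because FPKM is per length, the 2 receptors can be set side by side. The Nr3c1 level was 9.19, 9.15 and 9.14 times that of Nr3c2 in EtOH4hLPS libraries and 5.61, 6.51 and 6.60 times in EtOH libraries. It was 12.3, 20.2 and 14.4 times in PF4hLPS libraries and 6.46, 6.93 and 7.40 times in PF libraries. The LPS libraries lay above the saline libraries in both diets. Of the other steroid receptors, 2 of the 4 listed were tested and neither passed in either LPS comparison.

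Chaperones and coregulators load and tune the receptor. Of 20 such genes, all tested, 3 rose and none fell with LPS in pair-fed mice, and none passed in ethanol-fed mice, where single libraries left out gave 0 to 2 that rose (2 rose and 1 fell without PF4hLPS library 3, 1 rose without PF4hLPS library 2). The 3 were the coactivator Ncoa3 (0.85 ± 0.19, adjusted p = 0.00866), the co-chaperone Dnajb1 (0.84 ± 0.22, adjusted p = 0.0220) and the p23 co-chaperone gene Ptges3 (0.77 ± 0.23, adjusted p = 0.0410). In the ethanol-fed mice these genes stood at 0.57 ± 0.19, 0.19 ± 0.22 and 0.44 ± 0.23, in that order. Beside the list, 11.3% of all genes were called higher and 6.89% lower in pair-fed mice, and 10.7% and 6.39% in ethanol-fed mice. The count for pair-fed mice was 0 to 3 across the alternatives, with 1 left without PF library 2 or 3, and the list's median is negative in both diets with equal total FPKM or quantile normalization. Fkbp4, the positive partner of the receptor that FKBP51 displaces, was at -0.25 ± 0.41 and -0.65 ± 0.41 (adjusted p = 0.759 in ethanol-fed and 0.306 in pair-fed mice).

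Most of the response genes were higher with LPS. Of the 10 genes, 5 were past the threshold and higher and none lower on the ethanol diet, against 6 and 1 on the pair-fed diet. With equal total FPKM, which shifts most genes down, the split was 3 and 2 on ethanol and 4 and 2 on the pair-fed diet. The background in ethanol-fed mice was 10.7% of tested genes called higher and 6.39% called lower, and in pair-fed mice 11.3% and 6.89%. Since the genes were chosen with these values in view, nothing is read from the gap. Zbtb16 and Cebpd reached the filter on low values through LPS libraries alone, so that they differed was fixed in part by the filter. Groups did not overlap for 6 genes higher and 1 lower in each diet, where 18.8% and 14.8% of all genes did so on ethanol, and 18.5% and 15.7% on the pair-fed diet. The median fold change of the 10 was 0.94 in ethanol-fed and 1.22 in pair-fed mice, beside medians of 0.018 and -0.007 over all genes.

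**Figure D3:**
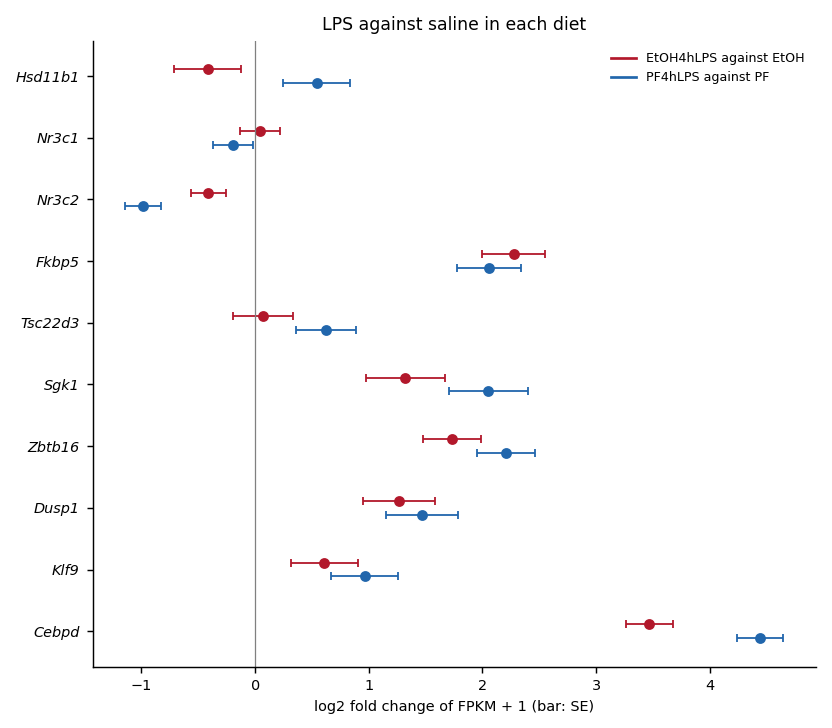
Log2 fold change of FPKM + 1 with LPS against saline for each gene, in ethanol-fed (red) and pair-fed (blue) mice, with SE bars. Cebpd stood at 3.47 in ethanol-fed and 4.44 in pair-fed mice, Fkbp5 at 2.27 and 2.06, and Nr3c2 at -0.41 and -0.98.

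Fkbp5 (chr17:28399094-28517527, minus strand) encodes FKBP51, the co-chaperone that lowers the receptor's affinity for hormone and is itself a direct receptor target. It had 125.1, 192.4 and 118.6 FPKM in EtOH4hLPS against 24.5, 34.9 and 27.2 FPKM in EtOH, and 146.2, 155.2 and 89.5 FPKM in PF4hLPS against 29.2, 22.5 and 39.4 FPKM in PF. Every LPS library was above every saline library. The difference was 2.27 ± 0.28 in ethanol-fed and 2.06 ± 0.28 in pair-fed mice, or 5.04-fold and 4.29-fold by the group means. Across the alternatives it ranged between 1.95 and 2.41 and between 1.57 and 2.31 in that order. Fkbp5 was the member with the highest mean level in EtOH4hLPS, at 145.4 ± 40.9 FPKM (SD, n = 3), and its range there did not overlap that of the next gene, Sgk1.

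Fkbp5 belongs to the FK506-binding proteins. Of 12 other listed members, 10 were tested. None passed in ethanol-fed mice. In pair-fed mice none rose and Fkbp14, an endoplasmic reticulum member, fell by 0.96 ± 0.18 (limma, adjusted p = 0.00288). Over all tested genes 10.7% were called higher and 6.39% lower on ethanol, and 11.3% and 6.89% on the pair-fed diet. The 1 of 10 that fell is near that share, so nothing is read from the count. Fkbp11 reached the filter on low values through saline libraries alone. With equal total FPKM up to 3 fell in the pair-fed and up to 2 in the ethanol-fed mice.

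Zbtb16 (chr9:48654297-48836222, minus strand), which encodes the zinc finger repressor PLZF, was near the floor in saline mice. It had 2.80, 5.90 and 4.76 FPKM in EtOH4hLPS against 0.52, 0.27 and 1.15 FPKM in EtOH, and 6.93, 5.53 and 4.24 FPKM in PF4hLPS against 0.36, 0.37 and 0.48 FPKM in PF. All LPS libraries stood above all saline ones. Zbtb16 was higher by 1.73 ± 0.26 in ethanol-fed and 2.205 ± 0.26 in pair-fed mice. By group means this was 6.96-fold and 13.8-fold, which the added 1 FPKM compresses: with 0.1 FPKM added, the estimates were 2.74 and 3.47.

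Sgk1 (chr10:21882184-21999903, plus strand), the kinase that keeps epithelial sodium channels at the tubule surface, had 44.2, 111.0 and 104.6 FPKM in EtOH4hLPS against 28.9, 27.3 and 39.7 FPKM in EtOH. It had 68.5, 56.5 and 114.3 FPKM in PF4hLPS against 17.0, 20.5 and 15.7 FPKM in PF. No LPS library overlapped the saline libraries of its diet, and the lowest was EtOH4hLPS library 1. Sgk1 was higher by 1.32 ± 0.35 in ethanol-fed and 2.05 ± 0.35 in pair-fed mice. The ranges across the alternatives were 0.99 to 1.74 and 1.56 to 2.26 in that order. The call for Sgk1 passed under 13 of 20 alternatives on ethanol and under all 20 on the pair-fed diet. Of its relatives, Sgk2 fell by 0.68 ± 0.21 (adjusted p = 0.0471) and 1.39 ± 0.21 (adjusted p = 6.9e-04), and Sgk3 did not pass in either diet. The ethanol-fed call for Sgk2 passed under 7 of 20 alternatives.

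Dusp1 (chr17:26505590-26562128, minus strand) encodes the phosphatase that switches off p38 and JNK kinases. It had 45.1, 30.3 and 42.3 FPKM in EtOH4hLPS against 11.2, 17.7 and 18.7 FPKM in EtOH, and 43.0, 39.2 and 57.7 FPKM in PF4hLPS against 11.7, 27.7 and 12.5 FPKM in PF. PF library 2 was the high one among saline libraries, still below every LPS library. Dusp1 was higher by 1.26 ± 0.32 in ethanol-fed and 1.47 ± 0.32 in pair-fed mice. The ranges across the alternatives were 0.94 to 1.44 and 0.98 to 1.84 in that order. The call for Dusp1 passed under 15 of 20 alternatives on ethanol and 19 of 20 on the pair-fed diet. The Dusp1 locus overlaps Ergic1 on the opposite strand, which had 13.6 to 27.2 FPKM, and no source used here states whether counting used strand, so fragments may be shared.

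Of 9 other phosphatases listed for the family, 8 were tested. On ethanol 4 rose (Dusp2, Dusp5, Dusp8 and Dusp16) and 2 fell (Dusp6 and Dusp9), and in pair-fed mice the same 4 rose and Dusp9 fell. Dusp2, Dusp5 and Dusp8 reached the filter through LPS libraries alone and Dusp9 through saline libraries alone, which fixed those directions in part. The background was 10.7% of all genes higher and 6.39% lower on ethanol, and 11.3% and 6.89% on the pair-fed diet. As a description without a test, Dusp8 was higher by 2.096 ± 0.35 in ethanol-fed and 1.67 ± 0.35 in pair-fed mice. Dusp9, which acts mainly on ERK kinases, was lower by 1.03 ± 0.18 and 1.07 ± 0.18, likewise without a test.

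Cebpd (chr16:15887286-15891031, plus strand), a transcription factor of the acute phase response, had 23.6, 18.1 and 23.8 FPKM in EtOH4hLPS against 0.69, 1.46 and 1.07 FPKM in EtOH. It had 25.6, 33.9 and 39.6 FPKM in PF4hLPS against 0.40, 0.65 and 0.57 FPKM in PF. All LPS libraries were far above all saline ones. The difference was 3.47 ± 0.20 in ethanol-fed and 4.44 ± 0.20 in pair-fed mice, which was 20.4-fold and 60.8-fold by group means. It had the widest LPS difference of the 10 genes in both diets on either scale. The locus overlaps Spidr on the opposite strand, at 2.35 to 8.82 FPKM, with the same limit. Hsd11b1 likewise overlaps Lamb3, which had 0.239 to 2.35 FPKM. Ethanol libraries lay above pair-fed ones with saline (0.41 ± 0.20) and below them with LPS (-0.56 ± 0.20), without overlap in either case.

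Among 5 tested relatives of Cebpd, on ethanol 2 rose and 1 fell, and on the pair-fed diet 3 rose and 1 fell. Shares over all genes were 10.7% higher and 6.39% lower on ethanol, and 11.3% and 6.89% on the pair-fed diet. Cebpb, a partner in the acute phase response, rose by 3.58 ± 0.22 (adjusted p = 3.5e-07) and 4.00 ± 0.22 (adjusted p = 1.2e-07) in ethanol-fed and pair-fed mice. Cebpa, a factor of differentiated epithelium, fell by 0.86 ± 0.27 (adjusted p = 0.0457) and 1.05 ± 0.27 (adjusted p = 0.0173). The call for Cebpa passed under 10 of 20 alternatives on ethanol and 15 of 20 on the pair-fed diet, where it was lost without PF library 2 or PF4hLPS library 2 or 3.

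Klf9 (chr19:23141226-23168134, plus strand), a zinc finger factor that responds to both glucocorticoid and thyroid hormone, had 96.7, 55.6 and 58.5 FPKM in EtOH4hLPS against 41.0, 38.3 and 55.3 FPKM in EtOH. It had 80.9, 137.7 and 60.7 FPKM in PF4hLPS against 42.6, 45.2 and 45.8 FPKM in PF. The LPS libraries lay above the saline ones in both diets, in ethanol-fed mice by as little as 55.6 against 55.3 FPKM. Klf9 was higher by 0.61 ± 0.30 in ethanol-fed mice and by 0.96 ± 0.30 in pair-fed mice. The pair-fed value ranged between 0.47 and 1.23 across the alternatives and was 0.64 without PF4hLPS library 2. The pair-fed call passed under 7 of 20 alternatives, and under 4 of the 12 that left out 1 library.

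Of 11 tested relatives among 12 listed Kruppel-like factors, on ethanol 6 rose and 1 fell, and on the pair-fed diet 5 rose and 1 fell. All tested genes gave 10.7% higher and 6.39% lower on ethanol, and 11.3% and 6.89% on the pair-fed diet. Klf5 reached the filter through LPS libraries alone. The largest was Klf6, known as an early injury response gene, at 4.24 ± 0.20 (adjusted p = 3.1e-08) and 4.04 ± 0.20 (adjusted p = 3.8e-08). Klf15, a known direct target of the glucocorticoid receptor in muscle, fell by 1.91 ± 0.18 (adjusted p = 1.2e-05) in ethanol-fed and by 0.96 ± 0.18 (adjusted p = 0.00248) in pair-fed mice. Without PF library 1 or 3 or PF4hLPS library 1 or 2, the number that rose in pair-fed mice was 3.

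Tsc22d3 (chrX:140539528-140600659, minus strand) encodes GILZ, a leucine zipper protein that binds NF-kappa B and is widely used as a readout of receptor activity. It had 17.4, 19.0 and 19.5 FPKM in EtOH4hLPS against 14.1, 20.9 and 18.9 FPKM in EtOH, and 16.2, 13.4 and 27.3 FPKM in PF4hLPS against 8.28, 14.1 and 12.8 FPKM in PF. The groups overlapped in both diets. The fold changes of 0.07 ± 0.26 in ethanol-fed and 0.62 ± 0.26 in pair-fed mice were the smallest positive values of a response gene in their diet. The ethanol-fed value was -0.25 with equal total FPKM and -0.15 with quantile normalization. Its relative Tsc22d1, a TGF-beta-stimulated gene, rose by 3.18 ± 0.19 (adjusted p = 2.2e-07) and 2.98 ± 0.19 (adjusted p = 3.9e-07), and the other 2 relatives did not pass.

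The order of levels differed with treatment. In PF mice Hsd11b1 led at 89.4 ± 13.5 FPKM, followed by Klf9 at 44.5 ± 1.72, Nr3c1 at 30.9 ± 1.21 and Fkbp5 at 30.4 ± 8.50 FPKM (SD, n = 3 each), and the ranges of Nr3c1 and Fkbp5 overlapped. In EtOH4hLPS mice Fkbp5 led at 145.4 ± 40.9 FPKM, with Sgk1 at 86.6 ± 36.8 and Klf9 at 70.2 ± 22.9 overlapping, and Hsd11b1 came after Dusp1. In EtOH mice the first 5 genes, Hsd11b1, Klf9, Sgk1, Nr3c1 and Fkbp5, each overlapped the next. In PF4hLPS mice Hsd11b1 at 136.9 ± 51.6 and Fkbp5 at 130.3 ± 35.6 FPKM could not be separated beyond their spread. Nr3c2 had the lowest mean in both LPS groups, overlapping Zbtb16 in EtOH4hLPS and not in PF4hLPS, while Zbtb16 and Cebpd were lowest in both saline groups.

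Other ethanol differences among the 10 genes were smaller. In saline mice none of the 10 genes was past the threshold against pair-fed controls, where limma called 0.0284% of all genes and 521 genes had an unadjusted p under 0.05. Groups did not overlap for Nr3c2, Sgk1 and Cebpd (higher) and Hsd11b1 (lower), beside 5.63% of all genes higher and 6.93% lower. Sgk1 was at 0.80 ± 0.35, and the other 6 genes lay between -0.05 and 0.59. In LPS-treated mice the groups did not overlap for Nr3c2 (higher) and for Hsd11b1 and Cebpd (lower), beside 5.34% and 5.59% of all genes, and the other 7 genes lay between -0.36 and 0.24. In both LPS states together Nr3c2 was the 1 gene higher throughout and Hsd11b1 the 1 gene lower throughout, beside 0.921% and 0.999% of all genes. The other 8 genes lay between -0.19 and 0.44.

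**Figure D4:**
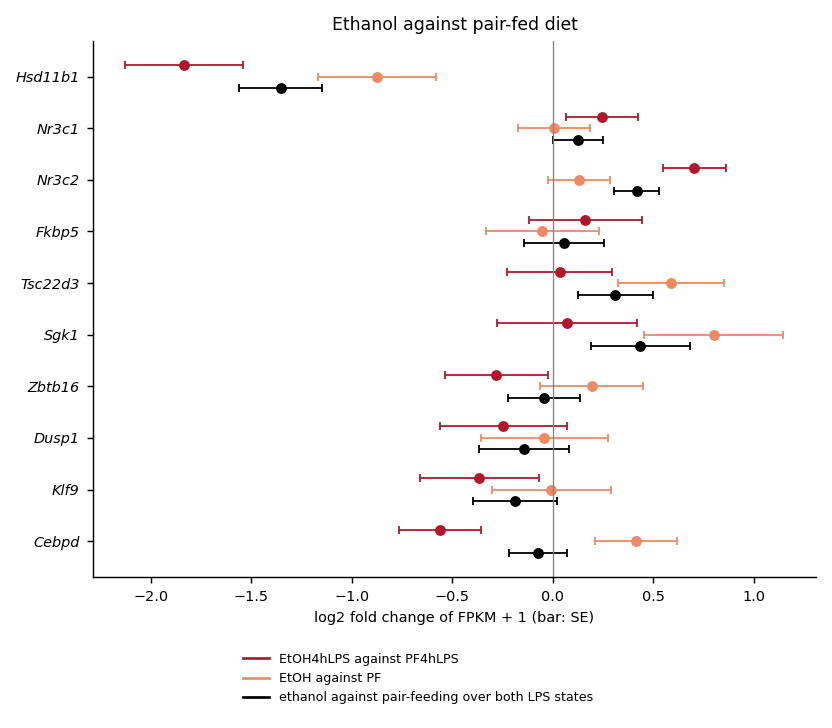
Log2 fold change of FPKM + 1 with ethanol against pair-fed diet for each gene, among LPS-treated mice (red), among saline mice (orange) and averaged over both (black), with SE bars. Hsd11b1 lay at -1.83, -0.88 and -1.35 in that order, lowest of the 10 genes each time.

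Between the diets, the LPS response of none of the 10 genes was past the threshold, where limma called 0.0284% of all genes and 616 had an unadjusted p under 0.05. The widest such difference was Cebpd at -0.98 ± 0.29, followed by Hsd11b1.

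Other genes that glucocorticoids are known to induce were listed beside the response genes. Of 30 listed, 27 were tested. LPS raised 15 and lowered 2 on the ethanol diet, and raised 13 and lowered 1 on the pair-fed diet, with medians of 1.61 and 1.08. Over all tested genes, 10.7% were called higher and 6.39% lower on ethanol, and 11.3% and 6.89% on the pair-fed diet. Lcn2, Cdkn1a and Il1r2 reached the filter through LPS libraries alone. Lcn2, which encodes the injury marker lipocalin 2, was higher by 6.89 ± 0.46 and 6.85 ± 0.46. That is a description without a test, since the filter fixed its direction in part. The metallothionein gene Mt2 rose by 5.37 ± 0.27 (adjusted p = 5.5e-08) and 5.33 ± 0.27 (adjusted p = 5.3e-08), at 183.1, 176.1 and 317.0 FPKM in EtOH4hLPS against 3.72, 5.27 and 3.91 FPKM in EtOH libraries. The other metallothionein gene, Mt1, rose by 3.46 ± 0.34 and 3.67 ± 0.34, and the small GTPase gene Rhob by 3.94 ± 0.19 and 3.68 ± 0.19.

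Within that list some members are known targets of other pathways as well. Nfkbia, the NF-kappa B inhibitor that is induced by NF-kappa B itself, rose by 3.50 ± 0.19 (adjusted p = 1.0e-07) in ethanol-fed and 2.95 ± 0.19 (adjusted p = 4.6e-07) in pair-fed mice. Per1, a clock gene that is also a receptor target, rose by 1.62 ± 0.47 (adjusted p = 0.0372) in ethanol-fed mice, and was at 1.05 ± 0.47 in pair-fed mice (adjusted p = 0.157). PF library 2 had 4.94 FPKM of Per1 beside 0.41 and 2.03 FPKM in PF libraries 1 and 3, and without it the pair-fed difference was 1.56 and passed; the call on ethanol passed under 11 of 20 alternatives. The genes that fell were Sesn1, a stress-response gene, in both diets and Fam107a, an actin-associated gene, in the ethanol-fed mice.

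**Figure D5:**
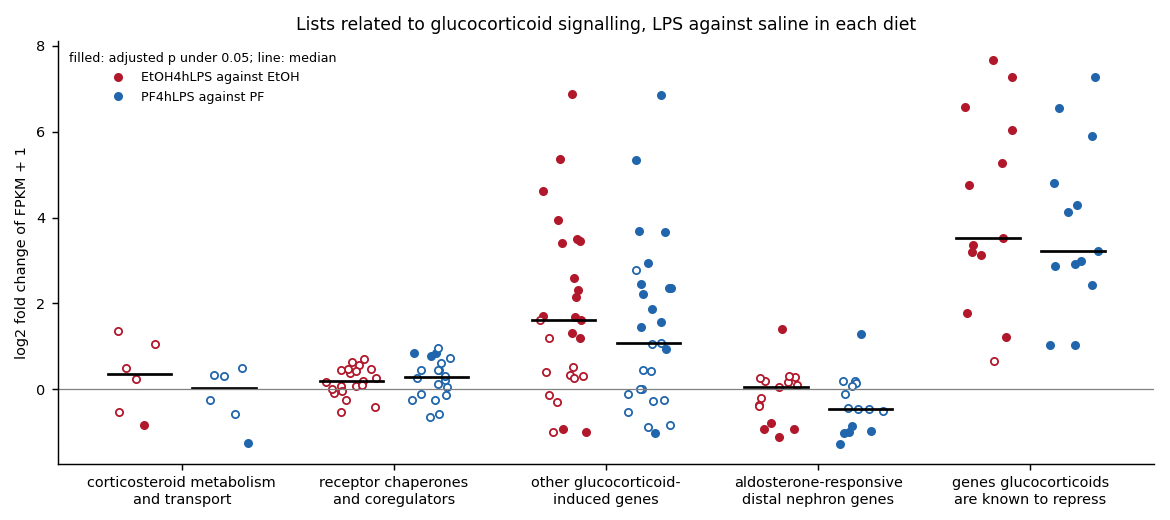
Log2 fold change of FPKM + 1 with LPS against saline for every tested gene of 5 lists, in ethanol-fed (red, left of each pair) and pair-fed (blue) mice; filled points passed an adjusted p under 0.05 and black lines are medians. The list of genes that glucocorticoids repress had medians of 3.53 in ethanol-fed and 3.22 in pair-fed mice. Of its 13 tested genes, 10 reached the filter on low values through LPS libraries alone, so nothing is read from its place above the other 4 lists.

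Genes that glucocorticoids are known to repress were raised at the same time. Of 15 listed inflammatory genes, Il1a and Mmp9 were too low to test, and of the 13 tested, 12 rose in ethanol-fed and 13 in pair-fed mice; Csf2 was the 1 that did not pass on ethanol. Of the 13, 10 reached the filter through LPS libraries alone (Ccl2, Csf2, Cxcl1, Cxcl2, Il6, Mmp13, Nos2, Ptgs2, Sele and Tnf), so their direction was fixed in part by the filter and the count and medians of the list support nothing. As a description without a test, Cxcl1, a neutrophil chemokine, was higher by 7.67 ± 0.22 in ethanol-fed and 7.27 ± 0.22 in pair-fed mice. The monocyte chemokine gene Ccl2 rose by 7.27 ± 0.15 and 6.56 ± 0.15, and Il6 by 6.59 ± 0.19 and 5.91 ± 0.19. Cxcl2 was also higher in EtOH4hLPS, at 65.3, 98.2 and 70.8 FPKM, against 35.8, 21.5 and 33.5 FPKM in PF4hLPS. It was the 1 of the 13 tested genes that passed in that comparison, by 1.35 (limma, adjusted p = 0.0488). Over all 14109 tested genes, 5 were called higher there. The Cxcl2 call passed under 3 of 20 alternatives. Nothing is read from it, since the gene was picked from the list by its value.

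More aldosterone-responsive genes of the distal nephron fell than rose. All 15 were tested. On ethanol 1 rose and 4 fell, and on the pair-fed diet 1 rose and 5 fell, with medians of 0.041 and -0.46. Across all tested genes 10.7% were called higher and 6.39% lower on ethanol, and 11.3% and 6.89% on the pair-fed diet. The ethanol-fed median is negative with equal total FPKM (-0.29) and with quantile normalization (-0.33), and also without EtOH library 2 or 3 or EtOH4hLPS library 3. The 1 that rose was Nedd4l, the ubiquitin ligase that removes sodium channels and is held back by Sgk1 protein, at 1.39 ± 0.18 (adjusted p = 1.8e-04) and 1.29 ± 0.18 (adjusted p = 3.0e-04). The potassium channel gene Kcnj10 fell by 1.12 ± 0.27 (adjusted p = 0.0131) and 1.29 ± 0.27 (adjusted p = 0.00581), and Klhl3, which targets WNK kinases for degradation, by 0.79 ± 0.16 and 1.03 ± 0.16. Wnk1 fell by 0.94 ± 0.29 and 0.99 ± 0.29, a call that passed under 10 of 20 alternatives on ethanol, with adjusted p up to 0.166, and under 14 of 20 on the pair-fed diet. The number that fell in pair-fed mice was 2 without PF library 1 or 2 and 3 without PF library 3 or PF4hLPS library 3. On ethanol it was 2 without EtOH library 1 or 3 and 1 without EtOH4hLPS library 2 or 3.

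Marker RNAs of other cell types also differed with LPS. Of 7 neutrophil and inflammatory monocyte markers, 6 were tested; on ethanol 3 rose and 1 fell, and on the pair-fed diet 4 rose and 1 fell, with Csf3r, Ly6c2 and Mmp8 reaching the filter through LPS libraries alone. Their sum was 166.9 to 251.9 FPKM in EtOH4hLPS against 6.20 to 9.06 in EtOH libraries, and 178.4 to 419.0 FPKM in PF4hLPS against 7.09 to 9.96 in PF libraries. S100a8 and S100a9 made up 97.4% to 98.3% of that sum in EtOH4hLPS against 38.9% to 54.0% in EtOH libraries, and 96.3% to 97.0% in PF4hLPS against 39.2% to 51.3% in PF libraries. Csf3r and Cxcr2 stayed at or below 1.64 FPKM in every library, and no marker was at 0 throughout. Of 9 endothelial markers 7 fell and 1 (Cdh5) rose in each diet, and they summed to 61.1 to 82.4 FPKM in EtOH4hLPS against 163.1 to 172.7 in EtOH, and 48.8 to 70.2 FPKM in PF4hLPS against 131.6 to 174.7 in PF. These marker counts stand beside 10.7% of all genes called higher and 6.39% lower on ethanol, and 11.3% and 6.89% on the pair-fed diet. None of the 5 tested macrophage markers passed. The part of these cells in the LPS differences of Fkbp5, Zbtb16, Sgk1, Dusp1, Klf9 and Cebpd was not tested.

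Markers of tissue that can be carried along with cortex are given beside Hsd11b1. Adrenal cortex markers summed to 0.44 to 0.90 FPKM over all 12 libraries and none was high enough to test, with Cyp11b2 at 0 in every library. Adipocyte markers summed to 12.5 FPKM in PF library 2 and to 1.68 FPKM or less in each of the other 11. Hsd11b1 was at 86.3 FPKM in PF library 2, beside 104.2 and 77.8 FPKM in PF libraries 1 and 3. Without PF library 2 the averaged ethanol difference was -1.36, beside -1.35 with all libraries, and no longer passed. That loss was not particular to PF library 2, since the call passed in only 3 of the 12 refits without 1 library. The part of such tissue in the Hsd11b1 difference was not tested.

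The genes whose profile was most like that of each of 4 members were listed by Pearson r of log2(FPKM + 1) over the 12 libraries, among 7503 protein-coding genes with a mean of at least 5 FPKM. The groups differ, so these r values mostly reflect group differences and are a description. For Hsd11b1 they were Lipo3 (r = 0.942), the carbonic anhydrase gene Car4 (r = 0.940) and Ctxn3 (r = 0.937). Car4 had 66.1, 56.3 and 73.4 FPKM in EtOH4hLPS and 64.7, 66.3 and 67.9 in EtOH, below 94.8, 125.5 and 171.5 FPKM in PF4hLPS and 119.9, 120.8 and 106.2 in PF. Since these genes were chosen for a profile like that of Hsd11b1, their ethanol differences carry no test. For Fkbp5 they were Etv6 (r = 0.986), Stat3 (r = 0.976) and Nab1 (r = 0.974), and for Zbtb16 Clu (r = 0.989), N4bp1 (r = 0.984) and Fgb (r = 0.982). Clu encodes clusterin and Fgb a fibrinogen chain, and Stat3 the main transcription factor of interleukin 6 signalling. For Klf9 they were Mtf2 (r = 0.956), Appl1 (r = 0.950) and Hnrnph2 (r = 0.945).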

How the data were processed

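The deposited table holds FPKM per gene and library, made by the authors; per the submitters' processing notes Cuffnorm, Cuffdiff 2.1.1, Cufflinks 2.2.1 and TopHat2 2.0.4 were among the tools and mm10 was the build, with no roles given. Libraries were stranded total RNA after ribosomal RNA removal, per the labels' protocols, so small RNAs enter the sums. The annotation release and the strand setting are not given in the sources. Ensembl IDs were matched to GENCODE M21 symbols (47219 of 47719).

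From these values limma 3.58.1 (R 4.3.3) was run on log2(FPKM + 1), with trend and robust priors and 1 mean per group over all 12 libraries, for the 14109 genes that reached 1 FPKM in 3 or more libraries. Tests were two-sided with Benjamini-Hochberg adjustment over those genes. An exact permutation test of 3 against 3 cannot go below p = 0.10. The table gives no counts, so absolute depth is unknown.

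The 10 genes, the lists and the tests were chosen with earlier results of these data known. Named genes were the 10 members, up to 4 passing genes per related list with the largest pair-fed LPS change, Hsd11b2, H6pd, Per1, Fkbp4, Nfkbia, Mt1 and Mt2, tested family members, the 3 most like genes for 4 members, and genes in counts of 5 or fewer. Alternatives were another pseudocount, no filter on low values, 3 rescalings, only the groups compared, no trend, a replicate block, and each library left out. Replicate numbers did not pair the libraries.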

Additional observations from a re-analysis of the deposited data

Results flagged for a closer look

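Cebpd differed between the diets in opposite directions: EtOH libraries lay above PF libraries and EtOH4hLPS libraries below PF4hLPS libraries, without overlap. The saline values were near the floor, at 0.69, 1.46 and 1.07 FPKM in EtOH against 0.40, 0.65 and 0.57 FPKM in PF. Cebpd reached the filter through LPS libraries alone, and the overlapping gene Spidr had 2.35 to 8.82 FPKM. The difference between the diets in the LPS response of Cebpd was -0.976 ± 0.29 on the log2 scale. It is a description with no test because Cebpd was chosen with its values in view. Klf11, a Kruppel-like factor, showed the reverse, below PF libraries in EtOH and above PF4hLPS libraries in EtOH4hLPS, with a difference of 0.795 ± 0.27 that did not pass (limma, adjusted p = 0.988).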

How the results depend on the processing

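The number of the 10 genes past the threshold with LPS in ethanol-fed mice, 5 as reported, was 3 with no filter on low values and 3 with quantile normalization, and 3 to 6 when single libraries were left out (3 without EtOH library 1 or EtOH4hLPS library 3); in pair-fed mice it was 7 as reported and 6 to 7. Among LPS-treated mice the ethanol count of 1 (Hsd11b1) was 0 with 0.1 FPKM added, no filter, equal total FPKM, median-ratio factors, only the groups compared, and no trend. Without single libraries it was 0 to 1, with Hsd11b1 called in 2 of 12 such refits. Averaged over LPS states the count was 0 with no filter and 0 to 1 without single libraries, with Hsd11b1 called in 3 of 12. Counts over all genes moved as follows. EtOH against PF gave 4, and 8 with no filter, 16 with only the groups compared and 3 to 7 without single libraries. EtOH4hLPS against PF4hLPS gave 14, and 6 with 0.1 FPKM added, 1 with no filter, 2 with equal total FPKM, 7 with median-ratio factors, 7 with no trend and 1 to 43 without single libraries. The averaged ethanol comparison gave 45, and 13 with no filter, 26 with equal total FPKM and 7 to 76 without single libraries. The interaction gave 4, and 7 with no filter and 3 to 7 without single libraries; PF4hLPS against PF gave 2561 and 1612 to 2751, the lowest without PF library 2. With equal total FPKM the median of all genes was -0.41 in pair-fed and -0.26 in ethanol-fed LPS comparisons, against -0.007 and 0.018 as reported. That setting left 25.1% and 35.5% of calls higher, against 62.0% and 62.5% as reported. With quantile normalization the median was about -0.12 in both. The LPS differences of Nr3c1 and Tsc22d3 in ethanol-fed mice changed sign with equal total FPKM (-0.28 and -0.25) and quantile normalization (-0.24 and -0.15), and ranged between -0.091 and 0.16 and between -0.089 and 0.18 without single libraries. The cause of these shifts was not tested.

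The replicate numbers did not pair the libraries: deviations of same-numbered libraries correlated at -0.21 to 0.28. With the replicate block, the ethanol count among the 10 genes was 0 in LPS-treated mice and 0 in the average, with 2 and 9 genes overall. Of 635 refits of 32 differences of the 10 genes, 569 kept direction and side of the threshold, 54 no longer passed, 5 newly passed and 7 changed sign. The 32 were every LPS difference in each diet, and chosen ethanol and interaction differences of Hsd11b1, Nr3c2, Sgk1 and Cebpd. The remaining ethanol and interaction differences of the 10 genes were left out, so these counts do not cover them. The table gives no counts, so what depth limits cannot be given per gene.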
